A study of Rattus norvegicus with 6 samples.

Results

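The S100 proteins and HMGB1 were followed in rat RA-FLS (fibroblast-like synoviocytes of rheumatoid arthritis, the cells that line the joint) by RNA-seq. The genes were chosen by name: the rows of the count table called S100a1, S100a4, S100a6, S100a8, S100a9, S100a10, S100a11, S100a13, S100a16 and Hmgb1, which are 10 of the 34156 genes listed. The sample labels give RA-FLS of wild-type genotype, used at passage 4, with rheumatoid arthritis as the disease state, and the methods obtained the rat cells from a commercial supplier. The TNF-α group (3 libraries) received 10 ng/mL TNF-α, an inflammatory cytokine that activates these cells. The TNF-α+EMO group (3 libraries) received 10 ng/mL TNF-α together with 80 μmol/L emodin (EMO), an anthraquinone found in rhubarb. The labels give day 5 for every library, whereas the methods give 24 h of treatment. Since both groups received TNF-α, the comparison asks what changed when EMO was added and holds no untreated cells. The methods speak of biological replicates, but the labels do not say that the libraries of a group came from separate cultures, so the p-values measure the spread between these libraries.

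S100 proteins are small calcium sensors that carry a pair of EF-hand motifs and bind partner proteins when calcium rises. HMGB1 is a nuclear protein that bends DNA. Outside the cell, some S100 proteins and HMGB1 act as alarmins, danger signals that reach receptors such as RAGE (Ager) and TLR4, and S100A8, S100A9, S100A4 and HMGB1 are well known from the inflamed joint.

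With EMO, S100a4, S100a6, S100a16 and Hmgb1 were lower, S100a10 and S100a11 were higher, S100a1 and S100a13 did not pass the test, and S100a8 and S100a9 were at the limit of detection. S100a4 had the largest change of the 8 tested. Of these 8, 4 were called lower (background over all 13614 genes tested, 41.4%) and 2 higher (background 39.4%), at an adjusted p under 0.05 by edgeR. At an absolute log2 fold change over 1 as well, 4 were lower (background 27.8%) and 0 higher (background 19.5%), since S100a10 and S100a11 stayed under that size with edgeR and with DESeq2. Of the 4, S100a16 passed the filter on low counts only through the TNF-α group, which favours a decrease, and its call was lost with DESeq2. The identity of the Hmgb1 row, described below, is uncertain. The 3 libraries of each group did not overlap for 6 of the 8, against 82.9% of all genes tested. The median log2 fold change of the 8 was -0.61, beside -0.01 for all genes tested. Most genes of these cells changed, so that a call on a member is not by itself particular to it.

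The S100 genes lie together on chromosome 2 and Hmgb1 is listed on chromosome 16 (Rnor_6.0 coordinates, as deposited). S100a4 (189997129 to 189999604, plus strand) and S100a6 (190007216 to 190008511, plus strand) are near neighbours, and S100a11 (193866951 to 193868502, plus strand) lies next to S100a10 (193892589 to 193901236, plus strand). RefSeq promoters, taken from another build (GRCr8) whose coordinates cannot be set beside those of the count table, were found for 7 of the 10 genes. The 250 bases before the start are shown for S100a4 and S100a6, which fell, and for S100a11, which rose. They are chr2:178388279-178388528, chr2:178398287-178398536 and chr2:181874882-181875131, all on the plus strand, and capitals mark matches to the motifs searched:
S100a4: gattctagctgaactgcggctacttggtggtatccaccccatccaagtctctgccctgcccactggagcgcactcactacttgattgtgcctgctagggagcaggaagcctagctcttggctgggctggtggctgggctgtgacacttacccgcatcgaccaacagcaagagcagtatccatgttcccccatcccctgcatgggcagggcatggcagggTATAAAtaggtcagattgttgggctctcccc
S100a6: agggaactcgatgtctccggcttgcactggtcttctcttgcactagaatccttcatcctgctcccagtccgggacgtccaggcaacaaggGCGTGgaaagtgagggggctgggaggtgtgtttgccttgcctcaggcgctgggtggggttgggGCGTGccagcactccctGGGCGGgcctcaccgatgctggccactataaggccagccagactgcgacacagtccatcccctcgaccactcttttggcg
S100a11: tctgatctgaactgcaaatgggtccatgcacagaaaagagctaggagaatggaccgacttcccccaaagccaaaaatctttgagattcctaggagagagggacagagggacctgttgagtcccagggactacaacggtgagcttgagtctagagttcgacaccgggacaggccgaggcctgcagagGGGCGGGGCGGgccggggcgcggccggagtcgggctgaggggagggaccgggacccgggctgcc

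The motifs were searched on both strands and were TATAAA (the TATA box), GGGCGG (a GC box), TGACTCA (bound by AP-1), GGG followed by any 2 bases and TTTCC (an NF-κB type site) and GCGTG (the core bound by the aryl hydrocarbon receptor). None of these contains another. The S100a4 window held a TATAAA 31 to 26 bases before the start, a motif found in 12.93% of 33469 RefSeq windows of the same length. The S100a6 window held GGGCGG, found in 30.47% of windows, and GCGTG at 2 positions, found in 25.89% of windows. The S100a11 window held GGGCGG at 2 positions that share 1 base. S100a13 also had a GGGCGG and S100a9 a TATAAA, and the window of S100a16 held none of the 5. The RefSeq window of Hmgb1, on chromosome 12 of GRCr8, held none either, but it need not be the promoter of the Hmgb1 row counted here, which is listed on chromosome 16. TGACTCA (4.046% of windows) and the NF-κB type site (1.3% of windows) were in none of the windows of these genes. These are matches of letters only, and none was tested for binding.

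The libraries held 16813322 to 17794455 counts, so that 3 counts, used as the floor of detection, correspond to 0.169 to 0.178 CPM (counts scaled to the same total in each library). Scaling to library totals alone in place of TMM moved the median log2 fold change of all genes from -0.01 to -0.12. TNF-α+EMO replicate 3 stood apart: the chi-square statistic divided by the number of genes came to 4.66 to 5.79 for pairs within the TNF-α group, 6.49 between TNF-α+EMO replicates 1 and 2, and 15.6 to 24.4 between either of these and replicate 3. Without it, 4 genes were still called lower and 2 higher. Fibroblast markers other than S100a4 summed to 5276 to 5409 CPM in the TNF-α group and 1775 to 1913 CPM with EMO. Of 7 tested, 6 were lower (background 41.4%) and 1 (Dcn) higher. Most of the sum was Vim, which fell 1.90-fold, while Pdgfra fell 96.4-fold, Cdh11 73.4-fold and Pdgfrb 21.8-fold. Fap and Lum passed the filter on low counts only through the TNF-α libraries and Dcn only through the TNF-α+EMO libraries, which favours their directions. Thy1, Pdpn and Prg4, which are among the markers used for synovial fibroblasts, were at 7 counts or fewer in every library. Of 14 myeloid markers, 3 were tested and all were higher (background 39.4%). They were Cd68, and Itgam and Laptm5, which passed the filter on low counts only through the TNF-α+EMO libraries. The myeloid markers summed to 9.58 to 11.8 against 18.0 to 18.2 CPM, whereas Cd163, Tyrobp, Mpo and Elane were at 0 throughout. In bulk RNA, fewer cells of a type and less RNA per cell cannot be told apart, and the part of these markers in the results was not tested. Endothelial markers summed to 4.18 to 4.59 CPM against 0.731 to 1.22 with EMO, epithelial to 600.8 to 660.1 against 111 to 127.1 and cartilage to 28.2 to 32.7 against 0.345 to 0.466. In each list 1 gene was tested and was lower, namely Vwf, Krt8 and Sox9. Vwf and Sox9 passed the filter only through the TNF-α libraries, which favours that direction. The epithelial sum was nearly all Krt8, and the other epithelial markers had 8 counts or fewer in every library.

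The order of the levels differed between the groups. Levels of different genes were compared per length, as TPM (transcript counts divided by gene length and scaled to the same total in each library) computed from the counts and the deposited gene lengths. In the TNF-α group the order was S100a11 (1841 ± 126.6 TPM, SD, n = 3), S100a4 (1794 ± 35.1), S100a6 (1558 ± 78.6) and S100a10 (568.6 ± 6.07), then S100a13 (17.7), S100a1 (11.6), Hmgb1 (9.30) and S100a16 (2.74). S100a11 and S100a4 overlapped between libraries, as did S100a13 with S100a1 and S100a1 with Hmgb1. With EMO the order was S100a11 (2367 ± 142.1 TPM), S100a10 (736.9 ± 54.8), S100a6 (409.5 ± 100.3) and S100a4 (26.3 ± 6.10), then S100a1 (12.04), S100a13 (11.8), Hmgb1 (2.31) and S100a16 (1.04), where only S100a1 and S100a13 overlapped among these neighbours. The Hmgb1 row is of uncertain identity, as described below, so in both groups its level need not be that of all Hmgb1 transcripts. By rank of TPM over all genes listed, S100a4 went from places 61 to 66 to places 4498 to 5975, while S100a11 held places 50 to 72 in the TNF-α group and 47 to 65 with EMO.

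S100a4 encodes a calcium-binding protein that promotes cell motility and binds non-muscle myosin. Its normalized counts (counts scaled by TMM to the mean library size) were 10558, 9962 and 10168 with TNF-α alone and 136.1, 214.9 and 229.2 with EMO. The groups lay far apart, and the lowest TNF-α library was well above every TNF-α+EMO library. The mean fell from 10230 ± 302.6 to 193.4 ± 50.1 (SD, n = 3 each), 52.8-fold lower, with a log2 fold change of -5.72 (standard error, SE, 0.16, 95% interval -6.10 to -5.35, adjusted p = 3.9e-09 by edgeR). Without TNF-α+EMO replicate 3 the log2 fold change was -5.84.

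S100a6 encodes calcyclin, which is made in proliferating cells. It had 6744, 5997 and 6523 normalized counts with TNF-α alone and 1715, 1925 and 2905 with EMO. The groups did not overlap, and TNF-α+EMO replicate 3 was the highest of its group. The mean fell 2.94-fold, from 6422 ± 383.8 to 2182 ± 635.2 (log2 fold change -1.56, SE 0.21, 95% interval -2.08 to -1.04, adjusted p = 6.8e-04 by edgeR). Without that replicate the log2 fold change was -1.80.

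S100a10 and S100a11 went the other way. S100a10 encodes p11, which does not respond to calcium and pairs with annexin A2 at the membrane. Its normalized counts were 2841, 2822 and 2869 with TNF-α alone and 4186, 4795 and 5241 with EMO. S100a11, which encodes a partner of annexin A1, had 4521, 4676 and 5120 against 7835, 8075 and 7694. For both genes every TNF-α+EMO library lay above every TNF-α library. S100a10 rose 1.67-fold, from 2844 ± 23.6 to 4740 ± 529.8 (log2 fold change 0.74, SE 0.08, 95% interval 0.56 to 0.91, adjusted p = 5.9e-06 by edgeR). S100a11 rose 1.65-fold, from 4772 ± 311.1 to 7868 ± 192.6 (log2 fold change 0.72, SE 0.06, 95% interval 0.58 to 0.86, adjusted p = 1.0e-06 by edgeR).

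S100a16, which encodes a calcium-binding protein found in many tissues, had the lowest level per length of the members tested. Its raw counts were 31, 28 and 26 with TNF-α alone and 9, 9 and 22 with EMO. The groups did not overlap, but TNF-α+EMO replicate 3 came close to the TNF-α libraries. S100a16 passed the filter on low counts only through the TNF-α group, which favours a decrease. Normalized, the mean fell from 27.7 ± 2.56 to 13.6 ± 7.60 (log2 fold change -1.01, SE 0.39, 95% interval -1.88 to -0.15, adjusted p = 0.033 by edgeR). The call was lost with DESeq2 (adjusted p = 0.059) and in 4 of the 6 edgeR fits that left out a library: TNF-α replicate 1 (log2 fold change -1.01, adjusted p = 0.075), TNF-α replicate 2 (-1.10, adjusted p = 0.056), TNF-α+EMO replicate 1 (-0.78, adjusted p = 0.1) and TNF-α+EMO replicate 2 (-0.77, adjusted p = 0.12). Without TNF-α+EMO replicate 3 it was -1.55 (edgeR adjusted p = 0.0018).

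S100a1 and S100a13 did not pass the test. S100a1, best known from heart muscle, had 40.2, 28.3 and 18.5 normalized counts against 28.9, 45.0 and 41.8 with EMO. S100a13, which takes part in the release of FGF1 from cells, had 59.8, 85.8 and 78.9 against 47.5, 63.4 and 82.5. The groups overlapped for both genes. The log2 fold change was 0.41 for S100a1 (95% interval -0.33 to 1.15, adjusted p = 0.28 by edgeR) and -0.21 for S100a13 (95% interval -0.78 to 0.35, adjusted p = 0.45 by edgeR), so that changes of these sizes in either direction were not resolved.

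S100a8 and S100a9 encode the subunits of calprotectin, the main S100 protein of neutrophils and monocytes. S100a8 (chromosome 2, 190073815 to 190074354) had 2, 0 and 1 raw counts with TNF-α alone and 0 in each TNF-α+EMO library. S100a9 (chromosome 2, 190097554 to 190100276) had 1, 0 and 0 raw counts and 0 in each TNF-α+EMO library. Both groups were at or under the floor of 3 counts for both genes, so they were not tested and no fold change or ratio between them was computed. At this depth, no transcript of calprotectin was detectable above the floor in either group.

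**Figure D1:**
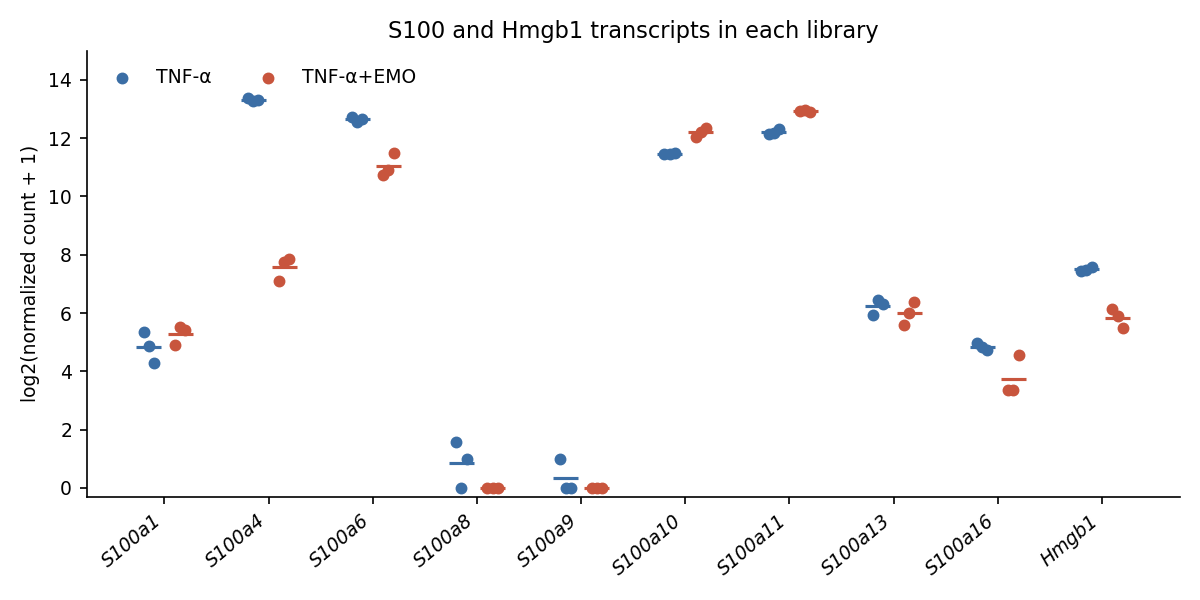
Log2(normalized count + 1) of the S100 genes and Hmgb1, with the TNF-α group in blue and TNF-α+EMO in red; points are libraries and lines are group means on that scale. S100a4 shows the widest gap, between normalized counts of about 10230 in the TNF-α group and 193.4 with EMO, and among the tested genes S100a10 and S100a11 are the genes with every TNF-α+EMO library higher.

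**Figure D2:**
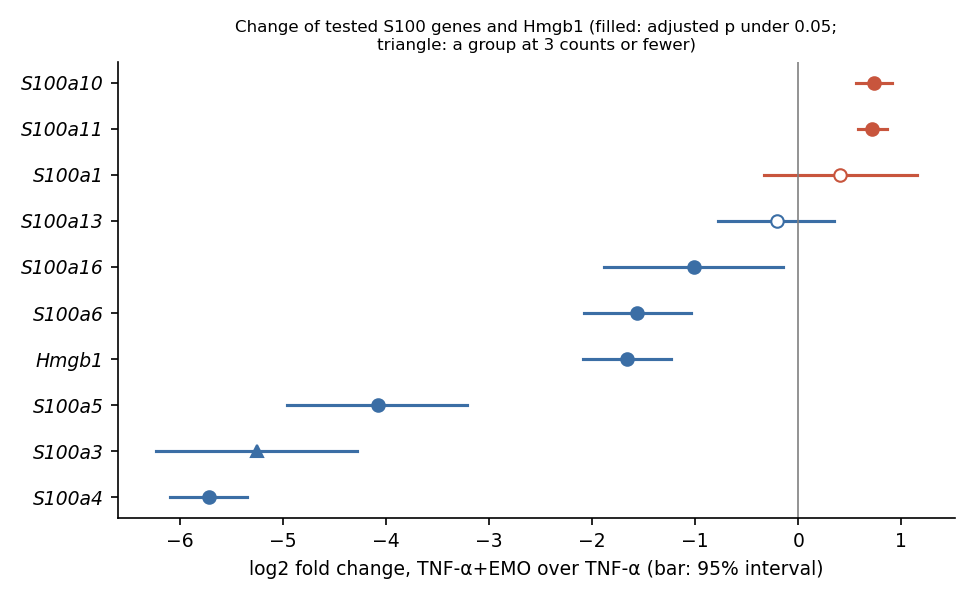
Log2 fold change of TNF-α+EMO over TNF-α with its 95% interval for the tested S100 genes and Hmgb1, with S100a3 and S100a5 added; filled points passed the test and the triangle (S100a3) has a group at 3 counts or fewer, so its size depends on the prior count. The intervals of S100a1 and S100a13 cross 0 and those of the other genes do not.

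The make-up of the S100 transcripts was described as the share of each gene in the summed TPM of the 9 S100 genes. S100a4, S100a6, S100a10 and S100a11 held 99.2 to 99.5% of the sum in every library. S100a4 made up 31.7, 31.2 and 30.01% with TNF-α alone and 0.553, 0.817 and 0.838% with EMO. S100a6 made up 28.1, 26.0 and 26.6% against 9.63, 10.1 and 14.7%. The shares of the S100a10 and S100a11 transcripts were larger with EMO. S100a10 went from 9.73, 10.1 and 9.65% to 19.4, 20.8 and 21.8%, and S100a11 from 29.9, 32.2 and 33.2% to 69.9, 67.5 and 61.8%. The mean shares were 31.0 ± 0.885, 26.9 ± 1.07, 9.82 ± 0.220 and 31.8 ± 1.71% for S100a4, S100a6, S100a10 and S100a11 in the TNF-α group, and 0.736 ± 0.159, 11.5 ± 2.79, 20.7 ± 1.24 and 66.4 ± 4.15% with EMO. For each of the 4 the groups did not overlap (two-sided exact permutation p = 0.1, the smallest that 3 libraries against 3 can give). The shares sum to the whole, so they do not move independently. Without division by length, the S100a10 share was 19.7 percentage points higher with EMO in place of 10.8.

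**Figure D3:**
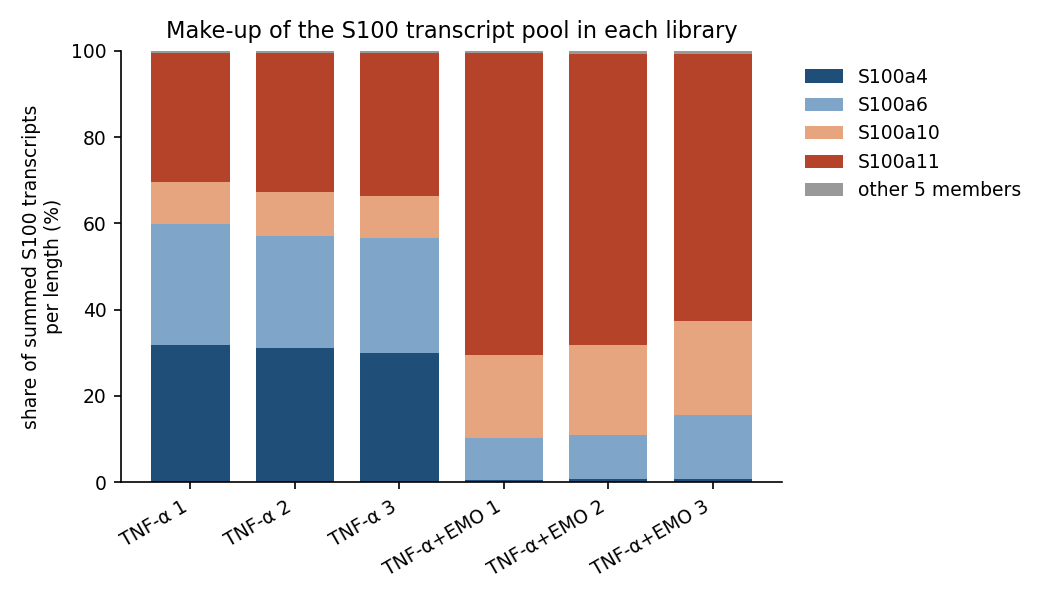
Share of each S100 gene in the summed S100 transcripts per length (percent), as a stacked bar for each library that starts at 0. S100a4 and S100a6 fill most of each TNF-α bar, and S100a11 fills 61.8 to 69.9% of each TNF-α+EMO bar.

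The summed S100 level was 5774, 5660 and 5949 TPM with TNF-α alone and 3485, 3646 and 3564 TPM with EMO. The groups did not overlap, with means of 5794 ± 145.8 and 3565 ± 80.2 TPM (exact permutation p = 0.1). The ratio of S100a4 to S100a6 per length was 1.13, 1.20 and 1.13 with TNF-α alone and 0.0574, 0.0807 and 0.0570 with EMO, so the 2 genes did not fall in proportion. The annexin A2 gene Anxa2, whose protein binds p11, fell while S100a10 rose. The ratio of S100a10 to Anxa2 per length was 0.305, 0.300 and 0.310 with TNF-α alone and 0.973, 1.02 and 1.17 with EMO. It went from 0.305 ± 0.00465 to 1.06 ± 0.105 (exact permutation p = 0.1), and a ratio of transcripts does not give the ratio of the proteins. Without division by length the difference was 0.313 in place of 0.751.

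Hmgb1 (chromosome 16, 37500017 to 37502237, plus strand) had 174.6, 177.5 and 189.0 normalized counts with TNF-α alone and 69.1, 58.3 and 43.8 with EMO. The groups did not overlap. The mean fell 3.16-fold, from 180.4 ± 7.62 to 57.1 ± 12.7 (log2 fold change -1.66, SE 0.19, 95% interval -2.09 to -1.23, adjusted p = 1.2e-05 by edgeR). Without TNF-α+EMO replicate 3 the log2 fold change was -1.48. The identity of this row is uncertain. Its deposited gene length of 2221 bases equals its span, so the row has no intron. RefSeq places the Hmgb1 promoter on chromosome 12 of GRCr8, and in RefSeq order the nearest coding gene to Hmgb1 with a single row in the count table is Uspl1, which the count table lists on chromosome 12 and not on chromosome 16. Reads of Hmgb1 and its near-identical copies could therefore be split between rows. The Hmgb1 pseudogene LOC108349189 on chromosome X, looked up after the values were seen, went from 53.7 ± 28.1 to 22.2 ± 5.72 normalized counts (log2 fold change -1.27, SE 0.39, adjusted p = 0.011 by edgeR).

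Among the other genes of the S100 family, 7 of 8 listed were matched and 2 were tested, both lower (background 41.4%). Their median log2 fold change was -4.67, or -4.29 with S100a3 at its bound. Both passed the filter on low counts only through the TNF-α libraries, which favours this direction. S100a5, next to S100a4, had 107.9, 105.3 and 122.7 normalized counts against 11.4, 2.05 and 6.11 with EMO (log2 fold change -4.08, SE 0.40, adjusted p = 2.5e-06 by edgeR). S100a3 had 60, 63 and 91 raw counts against 3, 1 and 1, which puts the TNF-α+EMO group at the floor and the gene at least 22.7-fold lower (adjusted p = 7.3e-07 by edgeR). S100a7a, S100b and S100z were at or under the floor, and S100a7l2 and S100g were at 0. S100a3, S100a4, S100a5 and S100a6 follow each other as S100 genes, with 1099, 3618 and 1344 bases between them. All 4 were lower, S100a3 and S100a5 with the limit set by the filter.

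Along the cluster, which runs from 189900667 to 193901236 on chromosome 2, S100a11 and S100a10 lie 2572576 bases beyond the nearest other S100 gene. S100a1 (189900667 to 189903219, minus strand), S100a13 (189906022 to 189912516, plus strand) and S100a16 (189922996 to 189928848, plus strand) lie at the other end. No member overlapped another listed gene. Of 60 other genes listed between the first and the last S100 gene, 41 had no count and 3 were tested. These 3 were at 0 in every TNF-α library and passed the filter on low counts through the TNF-α+EMO libraries alone, so their direction was fixed by the filter. Lce1f, a gene of the skin's cornified envelope, was at least 3.84-fold higher, AABR07012318.1 at least 29.5-fold and AABR07072759.1 at least 21.9-fold. Within 500 kb outside the cluster 15 genes were tested, all on the S100a1 side. Of these, 4 were lower (background 41.4%) and 8 higher (background 39.4%), with a median log2 fold change of 0.25. None of these 15 was lower by more than 1 on the log2 scale (background 27.8%), and 4 were higher by more than 1 (background 19.5%). The most highly counted that passed were Tpm3, a tropomyosin (8238 ± 104.1 to 4954 ± 21.2, log2 fold change -0.73), the ribosomal protein gene Rps27 (4874 ± 527.7 to 13645 ± 1268, 1.49), Chtop (1865 ± 13.6 to 2844 ± 186.2, 0.61) and LOC361985 (1303 ± 22.2 to 2842 ± 72.7, 1.12).

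**Figure D4:**
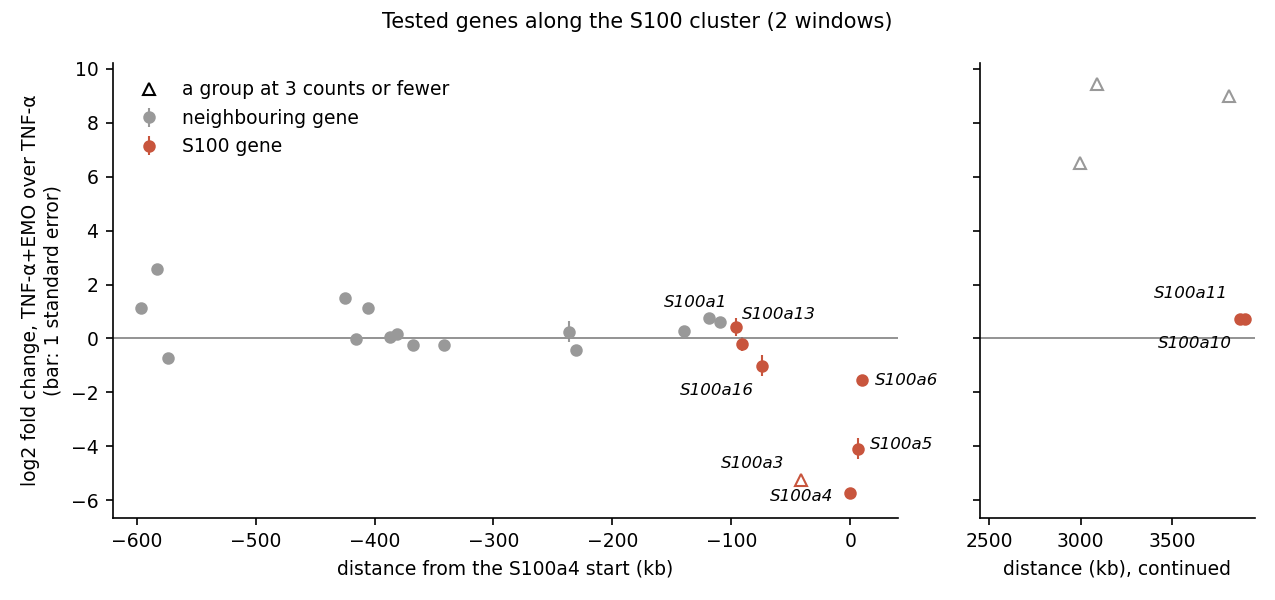
Log2 fold change (bar, 1 standard error) of each tested gene against its distance from the S100a4 start in kb, in 2 windows, with S100 genes in red and neighbouring genes in grey; open triangles mark genes with a group at 3 counts or fewer, whose size depends on the prior count. S100a3, S100a4, S100a5 and S100a6 sit together below -1, and S100a10 and S100a11 sit above 0 in the right window.

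Other HMG genes encode chromatin proteins, and 11 of 12 listed were matched and 9 tested. Of these, 6 were lower (background 41.4%), 0 were higher (background 39.4%) and the other 3 (Hmgb3, Hmga1 and Hmgn1) did not pass. The median log2 fold change was -0.77. Hmgb2, a close relative of Hmgb1 that is abundant in dividing cells, had 3543, 3566 and 3585 normalized counts against 675.6, 654.9 and 691.6 with EMO. This was a log2 fold change of -2.40 (SE 0.06, adjusted p = 4.7e-11 by edgeR). The nucleosome binding gene Hmgn2 fell from 5134 ± 182.7 to 1500 ± 64.1 (log2 fold change -1.78) and Hmgn3 from 936.0 ± 17.7 to 669.3 ± 25.7 (-0.48). Hmga2, which encodes an architectural factor of growing cells, had -0.95, Ssrp1, a subunit of the FACT histone chaperone, -0.33, and Hmg1l1, an Hmgb1-like gene with 3 to 19 counts a library, -1.17 (adjusted p = 0.039 by edgeR).

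Of 17 receptors and co-receptors listed for these alarmins, 15 were matched and 10 tested. Of these, 6 were lower (background 41.4%), 3 higher (background 39.4%) and 1 not called (median log2 fold change -0.62). Over 1 on the log2 scale, 4 were lower (background 27.8%) and 1 higher (background 19.5%). The latter was Alcam (42.3 ± 3.32 to 136.1 ± 38.9, log2 fold change 1.68). RAGE, the Toll-like receptors and Alcam were named here after their values were seen. Ager had 27.5, 21.5 and 18.5 normalized counts against 11.4, 6.14 and 16.3 with EMO, a difference at low counts (log2 fold change -0.99, SE 0.40, adjusted p = 0.04 by edgeR). Tlr2 had 175.6, 198.9 and 166.6 against 4.13, 7.16 and 4.07 (log2 fold change -5.10, SE 0.27, adjusted p = 1.3e-08 by edgeR). Both Ager and Tlr2 passed the filter on low counts only through the TNF-α libraries, which favours a decrease. Tlr4, a receptor of S100A8, S100A9 and HMGB1, had 625.8, 700.2 and 660.5 against 766.3, 757.2 and 632.6, and its groups overlapped (log2 fold change 0.12, SE 0.09, adjusted p = 0.27 by edgeR). Its co-receptor gene Cd14 fell from 1093 ± 57.8 to 510.3 ± 41.2. The heparan sulfate carriers Sdc1 (5069 ± 129.3 to 874.8 ± 40.8) and Sdc4 (3119 ± 77.4 to 1106 ± 57.3) also fell, with log2 fold changes of -2.53 and -1.50. Bsg, which encodes the S100A9 receptor CD147, rose from 7243 ± 465.0 to 9741 ± 1744 (log2 fold change 0.43, adjusted p = 0.0077 by edgeR), its relative Nptn fell from 4257 ± 169.3 to 3575 ± 292.2 (-0.25) and Cd24, whose protein binds HMGB1, rose from 1615 ± 106.0 to 2923 ± 193.1 (0.86).

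Of 28 genes listed for intracellular partners of S100 proteins and HMGB1, 26 were matched and tested. Of these, 20 were lower (background 41.4%), 4 higher (background 39.4%) and 2 (S100pbp and Cacybp) not called (median log2 fold change -0.93). Over 1 on the log2 scale, 13 were lower (background 27.8%) and 3 higher (background 19.5%). Of the 13, Fgf1, Syt1 and Myh9 passed the filter on low counts only through the TNF-α libraries, which favours a decrease. Anxa2 had 22352, 22572 and 22258 normalized counts against 10329, 11289 and 10727 (log2 fold change -1.05, SE 0.05, adjusted p = 1.2e-08 by edgeR). Ahnak, the giant scaffold bound by the p11 and annexin A2 complex, fell from 12373 ± 361.5 to 2204 ± 45.7 (log2 fold change -2.49). Atp2a2, the calcium pump of the endoplasmic reticulum, fell from 7709 ± 233.8 to 2254 ± 84.0 (-1.77), and Anxa5, another annexin, from 8620 ± 89.8 to 7863 ± 249.9 (-0.13, adjusted p = 0.04 by edgeR). The lysosomal protease gene Ctsb rose from 12448 ± 334.6 to 54569 ± 2158 (2.13) and Prdx1, a peroxide reducing enzyme, from 4464 ± 117.4 to 11436 ± 223.3 (1.36).

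Of 15 other alarmin genes listed, 13 were matched and 11 tested. Of these, 6 were lower (background 41.4%) and 5 higher (background 39.4%), with a median log2 fold change of -0.26. Over 1 on the log2 scale, 3 were lower (background 27.8%) and 2 higher (background 19.5%). Of the 3, Il33 and Il1a passed the filter on low counts only through the TNF-α libraries, which favours a decrease. Lgals1, which encodes galectin-1, fell from 32070 ± 1584 to 3157 ± 863.0 (log2 fold change -3.34) while Lgals3, which encodes galectin-3, rose from 1468 ± 104.1 to 6404 ± 421.4 (2.13). Calr, the calreticulin gene, rose from 28386 ± 432.4 to 35190 ± 999.1 (0.31) and Hspd1 from 5448 ± 162.8 to 7802 ± 258.2 (0.52), Hdgf fell from 4089 ± 191.0 to 2481 ± 209.8 (-0.72), and Hsp90b1 had a log2 fold change of 0.16 with overlapping groups (adjusted p = 0.047 by edgeR). The nuclear cytokine gene Il33, named after its values were seen, had 3245, 3220 and 3154 raw counts with TNF-α alone and 1, 0 and 0 with EMO. This is at least 1019-fold lower (adjusted p = 1.9e-12 by edgeR). Tslp, also named after its values were seen, rose from 15.0 ± 2.05 to 97.0 ± 12.9 (log2 fold change 2.69, adjusted p = 1.8e-06 by edgeR).

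**Figure D5:**
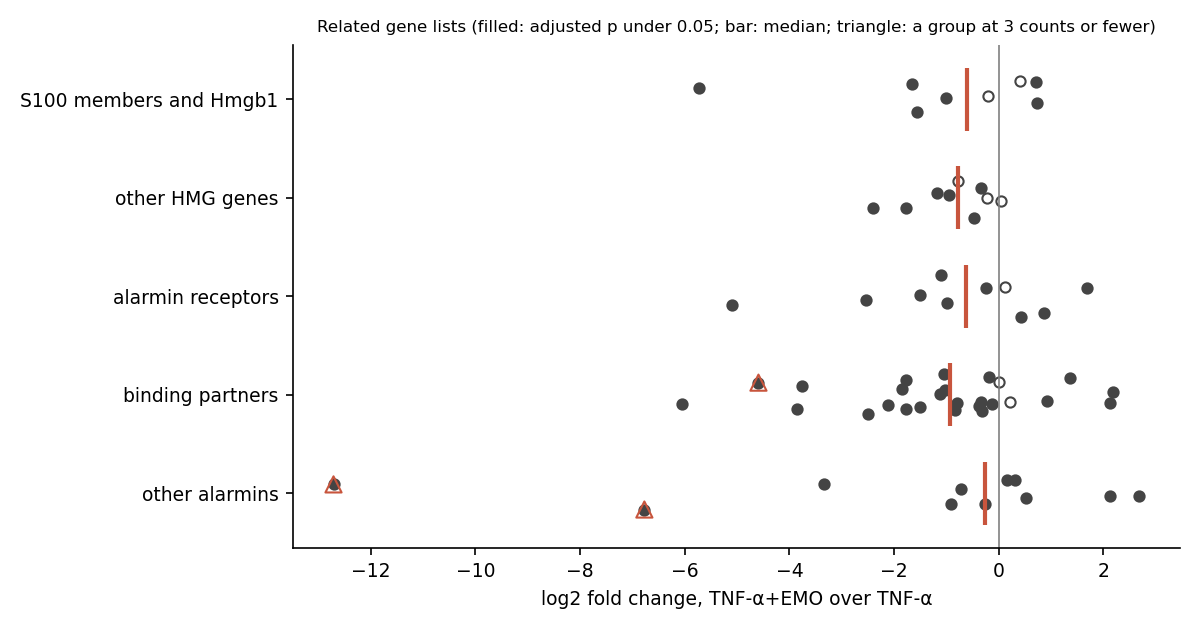
Log2 fold change of each tested gene in 5 lists, a point a gene, filled where the adjusted p was under 0.05, with a bar at the list's median and triangles round genes with a group at 3 counts or fewer. The medians run from -0.93 for the binding partners to -0.26 for the other alarmins, and every list has genes on both sides of 0.

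The genes whose profile over the 6 libraries was closest to that of S100a4, among 10277 genes with a mean of at least 100 counts, were Cdc20, an activator of the anaphase-promoting complex (distance 0.356 on centred log2 normalized counts, log2 fold change -6.06), Tnfrsf11b, which encodes osteoprotegerin (0.357, -5.91), and Pde4b, a cyclic AMP phosphodiesterase (0.367, -5.49). For S100a10, the member with the largest increase that passed the test, they were Aldh16a1 (0.0706, 0.76), the lipid droplet gene Plin3 (0.0827, 0.73) and Zmat2 (0.0917, 0.74). With 6 libraries in 2 groups, closeness mostly reflects a like size of change.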

How the data were processed

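RNA of 6 rat RA-FLS libraries was sequenced as poly(A)-selected paired-end libraries. Per the methods and the submitters' processing notes, reads were checked with FastQC, trimmed with Trimmomatic and aligned with HISAT2 to Rnor_6.0. The counting program and strand setting are not given in the sources used here. The authors deposited raw counts per gene, without normalization, for 34156 genes. Their 6 FPKM columns and 5 columns of their own comparison (group means, fold change, p-values) were not used here.

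The 13614 genes that reached 10 counts in 3 or more libraries were scaled by TMM and fitted with the quasi-likelihood test of edgeR 4.0.16 in R 4.3.3 over all of them, with Benjamini-Hochberg adjustment. A gene can reach this filter through a single group, which favours a direction. Hmg1l1, Ager, Tlr2, Tnfrsf11b and Il33 reached it only through the TNF-α group. So did Fgf1, Syt1, Myh9 and Il1a, which are named only for this limit. Called means an adjusted p under 0.05. DESeq2 1.42.0 was an alternative. Shares and ratios were tested by two-sided exact permutation over libraries. TPM was computed from counts and deposited gene lengths, and is relative to all transcripts of a library, so a fold between groups in TPM can differ from that in normalized counts. The scripts were tested on simulated data in which 200 genes changed, far fewer than were called here. That test therefore does not cover the scaling where most genes change. A fold against a group whose libraries are all at 3 counts or fewer is a lower bound against 3 counts per library, scaled as the libraries are. These floors take in counting error alone, because PCR copies of a molecule cannot be recognised without molecular identifiers. Totals were 16813322 to 17794455 counts.

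Members and lists were chosen with earlier results of these data known. Named were every member, at most 6 called genes a list by mean count, the 3 genes nearest in profile to the members with the largest decrease and increase, and at most 4 called neighbours. Alternatives were DESeq2, other scalings, filters and thresholds, the replicate block and leaving out each library.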

Additional observations from a re-analysis of the deposited data

How the results depend on the processing

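The log2 fold changes of S100a4 (-5.84 to -5.50), S100a6 (-1.80 to -1.39), S100a10 (0.62 to 0.84), S100a11 (0.61 to 0.76) and Hmgb1 (-1.80 to -1.48) kept their direction and call, at an adjusted p under 0.05, in all 13 alternative fits. S100a1 (0.10 to 0.65, 12 alternative fits) and S100a13 (-0.43 to -0.01) were called in none. S100a1 and S100a16 were not in the filter of at least 50 counts, so that alternative gave them no value. S100a16 lost its call in 5 of 12 alternatives (-1.55 to -0.77, adjusted p 0.0018 to 0.12): DESeq2 and the edgeR fits without TNF-α replicate 1, TNF-α replicate 2, TNF-α+EMO replicate 1 or TNF-α+EMO replicate 2, and the cause was not tested. Between 3 and 4 members were called lower under the alternatives. With an absolute log2 fold change over 1, 0 members were called higher in place of 2, since S100a10 and S100a11 stayed under that size. No pairing by replicate number was seen (correlations of deviations 0.0199, -0.00382 and 0.0622 for the same number, -0.0629 to 0.0442 for different numbers). With so few libraries this cannot show that they were unpaired. With the replicate number as a block, 4 members were lower and 2 higher, S100a4 had a log2 fold change of -5.74, S100a16 had -1.09 (edgeR adjusted p = 0.047), and no call changed. Without division by length, the S100a10 share differed by 19.7 percentage points in place of 10.8, and the ratio of S100a10 to Anxa2 differed by 0.313 in place of 0.751. Depth limits S100a8, S100a9 and S100a16, and 3 libraries a group limit every exact p to 0.1.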
